A study of Mus musculus with 19 samples.

Results

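The tectorial membrane and otic matrix genes are 9 of the 18639 gene symbols in the deposited table: Tecta, Tectb, Ceacam16, Otog, Otogl, Otoa, Coch, Otos and Otor. They were taken by symbol as secreted or surface products of cochlear supporting cells and fibrocytes, and all 9 were found in the table of 19 libraries. RNA was sequenced from mouse cochleae, the coiled organs of hearing, whose cells were dissociated and sorted for green fluorescent protein (GFP). Every mouse was a CX3CR1 GFP/+ heterozygote, so all groups, the nonmacrophages and the unsorted cochlea included, had lost 1 working copy of the chemokine receptor gene Cx3cr1. The GFP-positive sort is called macrophages. The GFP-negative sort is called nonmacrophages and is not a single cell type, since it pools GFP-negative cells of many types.

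Whole cochleae of old mice (12 to 14 months) gave 4 macrophage libraries (replicates 1, 7, 12 and 17) and 4 nonmacrophage libraries (replicates 10, 11, 18 and 19). Whole cochleae of young mice (1.5 months) gave 2 macrophage libraries (replicates 9 and 15) and 4 nonmacrophage libraries (replicates 2, 5, 6 and 14). From young mice there were also single libraries of each sort from the lateral wall and from the auditory nerve, and 1 library of an unsorted cochlea. Each isolate came from 1 mouse, and values of a group are given below in the order of replicates just listed. Values are normalized reads, which are read counts divided by a library factor.

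The tectorial membrane is a sheet of extracellular gel over the organ of Corti that touches the stereocilia of the outer hair cells. It is built from collagens and from non-collagenous glycoproteins, chiefly alpha-tectorin (Tecta), beta-tectorin (Tectb), CEACAM16 (Ceacam16), otogelin (Otog) and otogelin-like (Otogl), which are made by supporting and other epithelial cells beneath it, and otoancorin (Otoa) anchors it to the spiral limbus. Cochlin (Coch), otospiralin (Otos) and otoraplin (Otor) are secreted proteins of the fibrocytes and mesenchyme of the spiral ligament and limbus, and mutations in several of these genes cause inherited deafness.

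The genes lay on 7 chromosomes of mm10, with Otoa, Otog and Ceacam16 all on chromosome 7 but far apart. Coch occupied bases 51593341 to 51605771 of chromosome 12, and Otor bases 143078473 to 143081713 of chromosome 2, both on the plus strand. Otos lay on chromosome 1 at 92644218 to 92648841, minus strand. Tecta spanned 42329619 to 42399929 of chromosome 9 (minus strand) in up to 24 exons, and Tectb 55180733 to 55196313 of chromosome 19 (plus strand). Otog (46240987 to 46311434, plus), Otoa (121081650 to 121163097, plus) and Ceacam16 (19852097 to 19861299, minus) gave the chromosome 7 positions. Otogl spanned 107760531 to 107912134 of chromosome 10 on the minus strand. The annotation places an antisense gene, Gm47629, within the span of Tecta, the microRNA gene Mir6715 within that of Tectb and the protein-coding gene Gm19345 on the opposite strand of Ceacam16. Whether reads were counted by strand is not given in the sources used here, so reads of the Tecta and Ceacam16 pairs cannot be told apart. Mir6715 lies on the same strand as Tectb, so counting by strand would not separate that pair.

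RefSeq start-site regions (GRCm38.p6, 250 bases before to 50 after the start) were matched for 7 of the 9 genes, all but Otogl and Ceacam16. The sequences of 4 are shown because the results turn on these genes. In the fit used below, Coch and Otor were called lower in macrophages at both ages. Otog was the gene called for an age difference that depended on the sort, and Tecta was called higher in old cells of both sorts. Several of these calls were lost under other settings, as given below. Capitals mark matches on either strand to the TATA box (TATAAA), the CCAAT box (CCAAT), the E-box (CANNTG, N being any base) and the GC box (GGGCGG).
Coch, chr12:51593091-51593390, plus strand: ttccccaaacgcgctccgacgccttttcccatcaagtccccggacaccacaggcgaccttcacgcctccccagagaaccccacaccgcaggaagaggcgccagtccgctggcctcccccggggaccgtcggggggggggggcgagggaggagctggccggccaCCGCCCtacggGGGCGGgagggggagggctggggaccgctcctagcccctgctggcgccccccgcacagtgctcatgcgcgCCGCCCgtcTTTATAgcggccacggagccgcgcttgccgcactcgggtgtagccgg
Otor, chr2:143078143-143078442, plus strand: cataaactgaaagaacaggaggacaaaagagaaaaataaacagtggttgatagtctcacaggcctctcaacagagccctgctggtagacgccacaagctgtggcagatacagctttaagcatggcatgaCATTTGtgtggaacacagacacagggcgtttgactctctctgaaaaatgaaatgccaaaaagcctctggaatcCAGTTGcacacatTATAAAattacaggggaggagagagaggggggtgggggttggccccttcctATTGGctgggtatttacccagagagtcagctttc
Otog, chr7:46240737-46241036, plus strand: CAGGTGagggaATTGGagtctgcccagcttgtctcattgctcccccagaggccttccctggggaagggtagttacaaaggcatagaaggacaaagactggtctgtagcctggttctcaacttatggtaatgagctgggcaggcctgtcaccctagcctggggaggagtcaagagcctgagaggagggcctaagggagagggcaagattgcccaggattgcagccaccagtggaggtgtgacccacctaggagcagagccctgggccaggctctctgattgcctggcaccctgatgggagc
Tecta, chr9:42401641-42401940, minus strand, the farther upstream of its 2 starts: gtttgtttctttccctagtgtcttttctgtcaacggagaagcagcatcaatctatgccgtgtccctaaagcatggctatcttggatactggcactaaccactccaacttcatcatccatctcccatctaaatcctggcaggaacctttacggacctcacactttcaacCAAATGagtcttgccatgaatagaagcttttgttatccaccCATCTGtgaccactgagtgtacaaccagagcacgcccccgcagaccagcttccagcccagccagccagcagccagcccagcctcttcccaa
The Coch region had the highest GC content of the 8 matched, 73.7% against a median of 52.7% over all 32851 start-site regions, and held 3 GC boxes at -87, -76 and -6 from the start and a TATA box letter match on the reverse strand at 4. It held no E-box, a motif found in 72.3% of all regions of that length. The Otor region held a TATA box at -35 (13.6% of all regions hold one), E-boxes at -121 and -48, and a CCAAT box at 17 (37.4% of all regions). The Otog region held an E-box at -250 and a CCAAT box at -239, and its ACAAAG letters at -177 and -161 (a SOX-type motif, left in lower case) occur in 18.7% of all regions. The Tecta region shown held E-boxes at -82 and -41 and lies outside the gene span given above. The region of its other start, at 42399898 to 42400197, held E-boxes at -174 and -58 and SOX-type letters at -224 and -155. GC boxes occur in 35.7% of all regions. These are letter matches and do not show that a factor binds there.

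Depth ran from 20.6 to 71.6 M reads per library (M, mega), and old libraries were deeper (50.6 to 71.6 M) than the sorted young whole-cochlea ones (24.9 to 35.1 M) apart from young nonmacrophage replicate 14 at 60.2 M, so depth and age nearly coincided and cannot be told apart. Young macrophage replicates 9 and 15 had reads in 11652 and 13532 genes, against 16750 to 17282 in old macrophages. The sort was checked with Cx3cr1, which stood at 6383 to 9927 in old macrophages and 9201 and 22528 in young macrophages, against 26.8 to 102 in old and 1.63 to 4.28 in young nonmacrophages. Csf1r, the receptor for a macrophage growth factor, and Ptprc, a leukocyte surface phosphatase, were likewise 181 and 30.6 times as high in old macrophages as in old nonmacrophages by their means. The macrophage libraries also held RNA of genes that mark other cells: 8 genes of spiral ganglion neurons summed to 224348 to 255953 normalized reads in old macrophages and 132237 and 216162 in young macrophages, against 7454 to 12274 in old and 5182 to 27862 in young nonmacrophages. The lateral wall nonmacrophage library had a summed strial marginal cell signal of 77808 and the auditory nerve one 16053. Schwann cell and glial genes summed to 57152 and 3186454. The strial and glial lists thus ran the way the substructure labels name. Fibrocyte and mesenchyme genes did not, with 162426 in the lateral wall and 376866 in the auditory nerve library. Fewer cells of a type and less RNA per cell cannot be told apart in such libraries.

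Coch was by far the most abundant of the 9 genes in every group. It took 54.5% (young macrophage replicate 9) to 98.1% (auditory nerve macrophages) of the 9 genes' summed normalized reads. On a scale of normalized reads per kilobase of exon, used only to compare genes, Coch had a mean level of 26181 in old nonmacrophages. Ceacam16 followed at 6766, Otor at 4369 and Otos at 615, and these first 4 did not overlap in the 4 libraries. Otoa (404) overlapped Otos, and Otoa, Otog (185), Tectb (111), Tecta (61.0) and Otogl (38.8) overlapped each with the next in that order. In young nonmacrophages the order was Coch (63497 per kilobase), Otor (9754), Ceacam16 (3241) and Otos (1639), and Ceacam16 and Otos overlapped while the other steps among these 4 did not. Otoa (131), Otog (98.3), Tectb (73.2), Otogl (9.27) and Tecta (3.24) again overlapped each with its neighbour, so Tecta and Otogl were at the bottom at both ages.

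**Figure D1:**
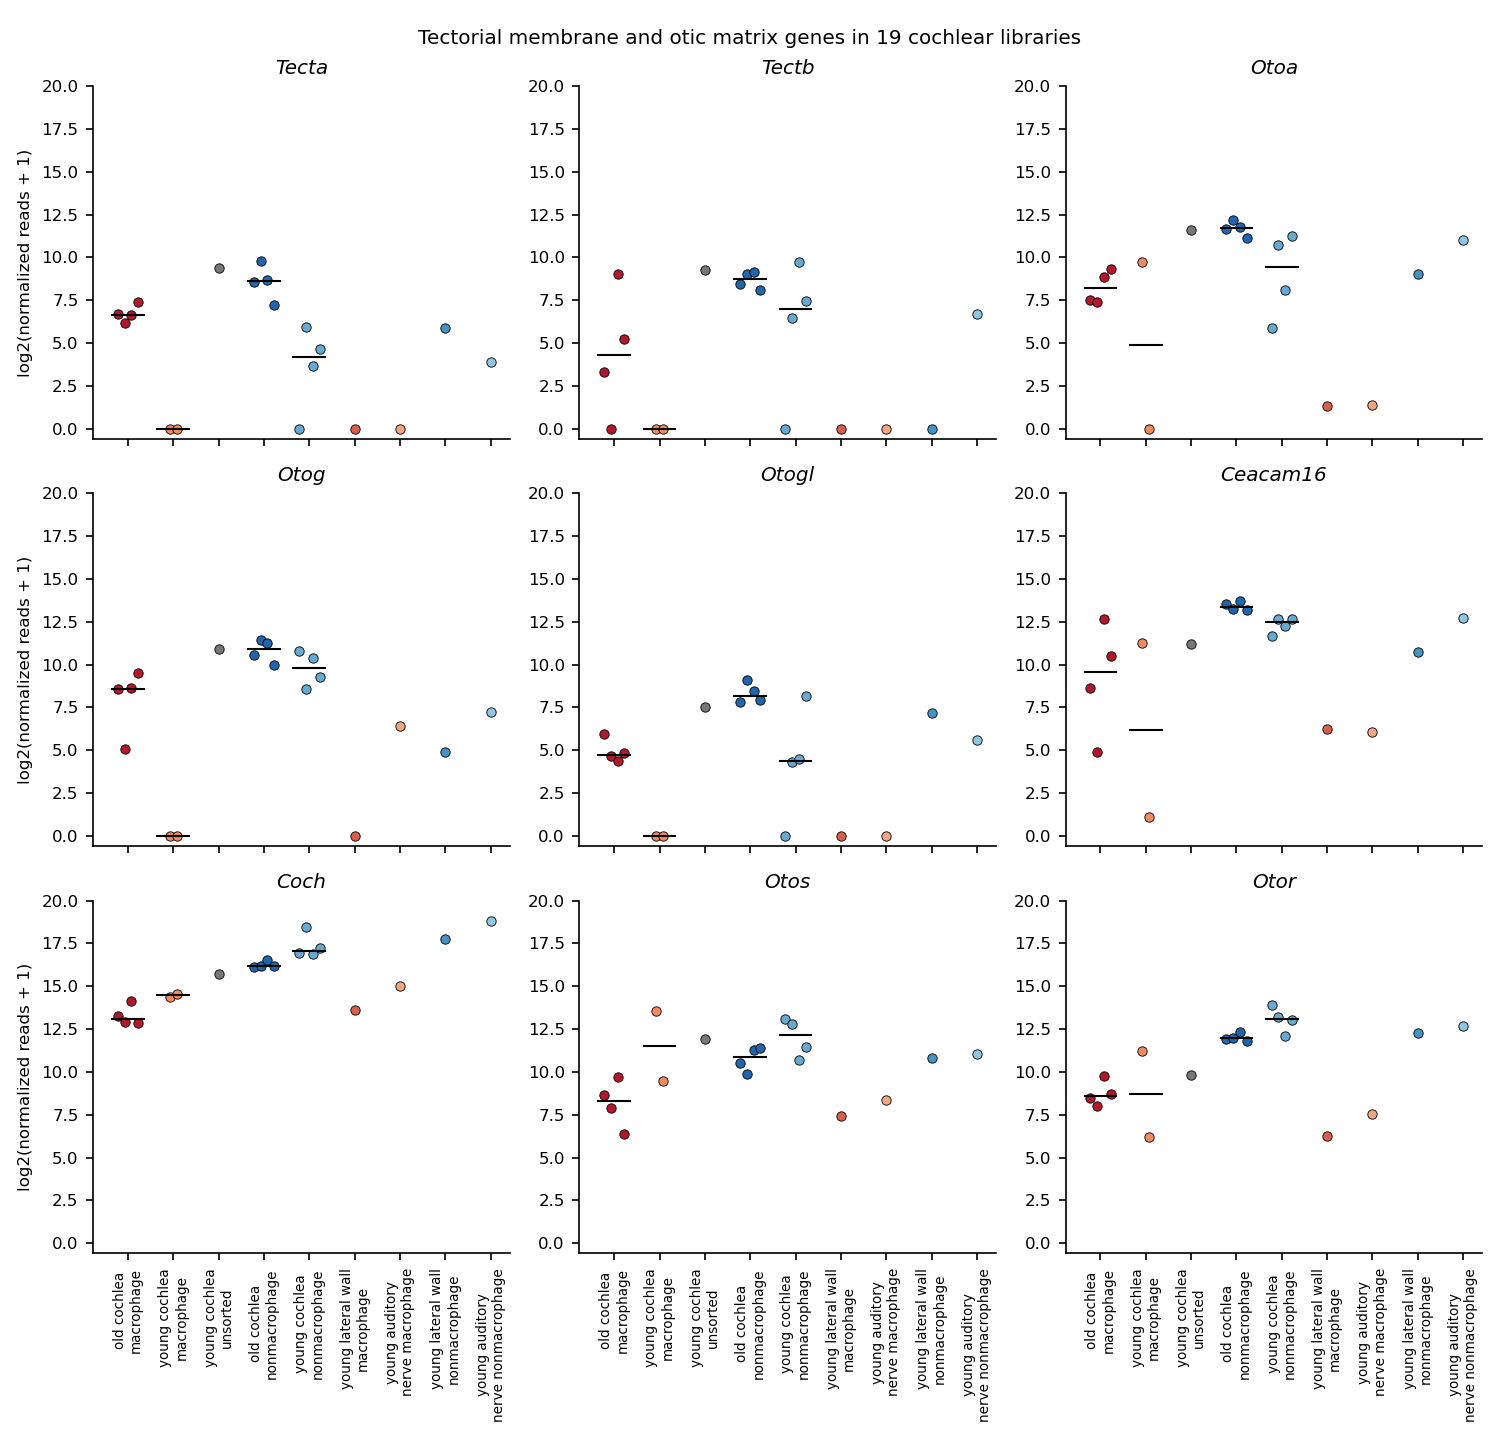
Log2(normalized reads + 1) of the 9 genes in each of the 19 libraries (points), with the median as a bar in groups of more than 1 library. Coch lies at the top of the scale in every group, and Tecta, Tectb, Otog and Otogl lie at 0 in both young whole-cochlea macrophage libraries.

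Tecta encodes alpha-tectorin, the large glycoprotein that binds the other components of the membrane. It had 101, 72.4, 97.2 and 168 normalized reads in old macrophages and none in both young macrophage libraries. Old nonmacrophages had 381, 872, 405 and 149, and young nonmacrophages 0, 59.9, 11.4 and 24.6. Old libraries were thus above young ones in each sort without overlap, while old macrophages overlapped old nonmacrophages through macrophage replicate 17 and nonmacrophage replicate 19.

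Tectb encodes beta-tectorin, a partner of alpha-tectorin in the striated sheet of the membrane. Old macrophages had 8.98, 0, 514 and 37.2 normalized reads, and both young macrophage libraries had none. Old nonmacrophages had 351, 520, 560 and 273, and young nonmacrophages 0, 85.8, 855 and 177. Of the old macrophages replicate 12 alone lay within the old nonmacrophage range, all 4 lay within the young one, and young nonmacrophages ranged more widely than old ones.

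Ceacam16 encodes an adhesion-family protein secreted into the membrane. It had 404, 28.8, 6421 and 1428 normalized reads in old macrophages and 2438 and 1.13 in young macrophages, the last being 1 read. Old nonmacrophages had 11940, 9522, 13457 and 9329, and young nonmacrophages 3254, 6518, 4854 and 6570. The 4 old nonmacrophage libraries were the highest of all 19, and both macrophage groups spread far more widely than the nonmacrophage groups.

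Otog encodes otogelin, a mucin-like protein of the acellular gels of the inner ear. It had 382, 33.2, 391 and 733 normalized reads in old macrophages and none in both young macrophage libraries. Old nonmacrophages had 1498, 2744, 2430 and 1005, and young nonmacrophages 1748, 376, 1333 and 613. The nonmacrophage ages overlapped, whereas the old and young macrophage libraries did not.

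Otogl encodes the related otogelin-like protein. It had 59.7, 23.9, 19.4 and 27.4 normalized reads in old macrophages and none in both young macrophage libraries. Old nonmacrophages had 229, 541, 349 and 243, and young nonmacrophages 0, 19.1, 21.2 and 285. The young value of 285 in replicate 14, the deepest young library, lay within the old range and the other 3 young values lay below it.

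Otoa encodes otoancorin, the protein that fixes the membrane's inner edge to the limbus. It had 183, 167, 464 and 641 normalized reads in old macrophages and 862 and 0 in young macrophages. Old nonmacrophages had 3270, 4712, 3450.0 and 2220, and young nonmacrophages 58.7, 1707, 272 and 2380. All old nonmacrophage values were above all macrophage values, but young replicate 14 overlapped the old nonmacrophages and the young sorts overlapped each other.

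Coch encodes cochlin, an abundant protein of the fibrocyte matrix. It had 9823, 7547, 17695 and 7524 normalized reads in old macrophages and 21253 and 23837 in young macrophages. Old nonmacrophages had 71089, 74819, 95176 and 72874, and young nonmacrophages 125822, 362711, 120474 and 152451. None of the 4 groups overlapped another, with young nonmacrophages highest and old macrophages lowest.

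Otos encodes otospiralin, a small secreted protein of fibrocytes. It had 401, 239, 839 and 82.9 normalized reads in old macrophages and 12094 and 707 in young macrophages. Old nonmacrophages had 1479, 922, 2444 and 2736, and young nonmacrophages 8529, 7227, 1659 and 2791. Young macrophage replicate 9 held the highest value of all 19 libraries, while replicate 15 lay in the old macrophage range.

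Otor encodes otoraplin, a small secreted protein also called fibrocyte-derived protein. It had 355, 258, 861 and 416 normalized reads in old macrophages and 2364 and 72.3 in young macrophages. Old nonmacrophages had 3934, 3977, 5045 and 3629, and young nonmacrophages 15047, 9252, 4379 and 8349. Every macrophage value lay under every nonmacrophage value of either age.

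The first comparison set GFP-positive against GFP-negative cells of the old cochlea. Coch, Otor and Otog were lower in old macrophages, and the other 6 genes had negative differences that did not pass the test. Coch averaged 10647 ± 4821 normalized reads in old macrophages, against 78489 ± 11228 in old nonmacrophages (SD, n = 4 each). Its log2 difference was -2.97 (SE 0.34, limma adjusted p = 8.22e-05). Otor averaged 473 ± 267 in old macrophages and 4147 ± 619 in old nonmacrophages, a log2 difference of -3.27 (SE 0.80, limma adjusted p = 0.0119). Otog averaged 385 ± 286 in old macrophages and 1919 ± 807 in old nonmacrophages, a log2 difference of -2.85 (SE 0.85, limma adjusted p = 0.0339). These 3 of 9 genes called lower stand beside 9.36% of all 18441 genes tested.

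The remaining 6 log2 differences in the old cochlea were -1.84 for Tecta, -4.28 for Tectb, -4.24 for Ceacam16, -3.39 for Otogl, -3.41 for Otoa and -2.60 for Otos, with limma adjusted p from 0.0577 (Otos) to 0.272 (Tecta). The median log2 difference of the 9 genes was -3.27 and that of all genes tested -0.19. In 7 of the 9 genes, all but Tecta and Tectb, every old macrophage value lay below every old nonmacrophage value, against 30.0% of all genes. Where only the 8 old libraries were fitted, all 9 genes were called lower, with 33.4% of 18272 genes. By their means, old macrophages held 9.6% (Otogl) to 32.9% (Tectb) of the old nonmacrophage level. Old macrophage replicate 12 set the means of 3 genes: without it those shares were 3.6% in place of 32.9% for Tectb, 5.6% in place of 18.7% for Ceacam16 and 12.7% in place of 20.6% for Otos. The Otog call was lost without any 1 of replicates 1, 7, 12, 10, 11 and 18 and with edgeR (adjusted p up to 0.0965), while the Coch and Otor calls were kept in all 18 alternatives run.

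**Figure D2:**
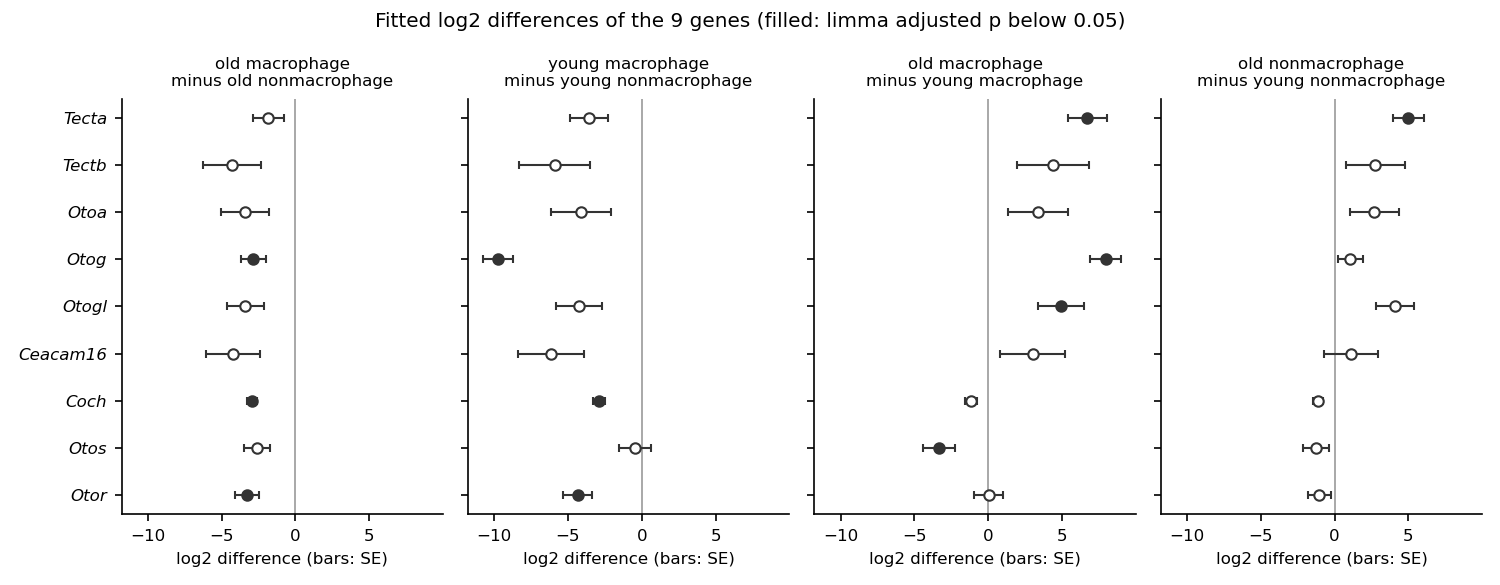
Fitted log2 differences of the 9 genes in 4 comparisons (points, bars show the SE of the limma fit), filled where the adjusted p was under 0.05. Every fitted point of the 2 sort comparisons lies left of 0, although by its mean Otos was higher in young macrophages than in young nonmacrophages, and in the age comparisons the tectorial genes lie right of 0 and Coch and Otos left of it.

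In the young cochlea Coch, Otor and Otog were again lower in macrophages. Coch had a log2 difference of -2.92 (SE 0.42, limma adjusted p = 0.000171), and its means were 11.8% of the level of young nonmacrophages. Otor had a log2 difference of -4.34 (SE 0.97, limma adjusted p = 0.00462), which was -6.85 without young macrophage replicate 9 and -1.84 without replicate 15. Otog was at least 235-fold lower in young macrophages, a bound taken against 3 reads per library because both libraries had none (limma adjusted p = 1.25e-05). The same bounds were at least 64.5-fold lower for Tectb, 18.7-fold for Otogl and 5.5-fold for Tecta, and these did not pass (limma adjusted p of 0.078, 0.0523 and 0.0518). Each of these 3 bounds rested on 1 young nonmacrophage library: it was 20.2-fold for Tectb without replicate 6, 3.1-fold for Otogl without replicate 14 and 2.7-fold for Tecta without replicate 5. Ceacam16 (-6.15, limma adjusted p = 0.0502), Otoa (-4.11, adjusted p = 0.139) and Otos (-0.49, adjusted p = 0.769) did not pass either. By their means young macrophages held 23.0% of the young nonmacrophage level of Ceacam16, 39.0% of that of Otoa and 126.7% of that of Otos, so the Otos mean and its fitted difference had opposite directions. The difference of Otos was -2.54 without young macrophage replicate 9 and 1.56 without replicate 15, and that of Otoa -8.99 and 0.77, so 1 library decided both signs. That of Ceacam16 was -11.23 without replicate 9 and -1.06 without replicate 15. Without replicate 9 Otoa and Ceacam16 passed (limma adjusted p of 0.000474 and 0.000387). Without molecular identifiers, bounds and intervals account for counting error alone.

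The 3 of 9 genes called lower in young macrophages stand beside 22.3% of all genes, and 4 of 9 (Coch, Otor, Otog and Ceacam16) did not overlap, beside 18.6% of all genes. The median log2 difference was -4.24 over the 9 genes, -4.22 with the 4 genes at 0 set at their bounds, and -0.61 over all genes. The 2 young macrophage libraries disagreed on 4 genes: replicate 9 was above replicate 15 in Otoa, Ceacam16, Otos and Otor, and replicate 15 had 0 or 1 read of Otoa and Ceacam16. Without replicate 9 the number of the 9 genes called lower was 5, and without replicate 15 it was 3. None of the 3 calls was kept with library quality weights (limma adjusted p = 0.364 for Coch, 0.313 for Otor and 0.281 for Otog), and the Otor call was also lost in a fit of only the 6 sorted libraries of young whole cochleae (adjusted p = 0.0722). Over all genes the split was 1693 higher and 4121 lower, and 2361 and 2797 after quantile normalization, which moved the median to 0.08.

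The second question was how each sort differed between old and young mice. In macrophages Otog, Tecta and Otogl were higher in old mice and Otos was lower. The 10 macrophage marker genes summed to 178988 to 302102 normalized reads in old macrophage libraries, against 757330 and 929202 in young ones. The part of this difference in the values of the 9 genes was not tested. Otog was at least 88.9-fold higher in old macrophages (limma adjusted p = 0.000118), Tecta at least 25.3-fold (adjusted p = 0.00213) and Otogl at least 7.5-fold (adjusted p = 0.0301), each against 3 reads per library in the young group. Tectb, also at 0 in both young libraries, was at least 32.3-fold higher by its mean of 140 ± 250 normalized reads (SD, n = 4), a value set by replicate 12 (3.5-fold without it), and did not pass (adjusted p = 0.179). Otos had a log2 difference of -3.35 (SE 1.08, limma adjusted p = 0.0338). It rested on young macrophage replicate 9, without which the difference was -1.30 (adjusted p = 0.426). The Otos call was also lost without old macrophage replicate 7 or 17, with only the groups compared and with quality weights (adjusted p of 0.0656, 0.0778, 0.14 and 0.878). Quality weights ended the Otog and Tecta calls too (limma adjusted p of 0.398 and 0.428), and those 2 calls were kept in the other 15 alternatives. The Otogl call was lost in 9 of 16 alternatives: quantile normalization, a pseudocount of 10, quality weights, edgeR and leaving out any 1 of old macrophage replicates 1, 7 and 17 and young macrophage replicates 9 and 15 (adjusted p up to 0.623).

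Coch was lower in every old macrophage library than in both young ones but had a limma adjusted p of 0.0515 (log2 difference -1.18, SE 0.42). Otoa (3.40) and Ceacam16 (3.00) did not pass (limma adjusted p of 0.214 and 0.316), and 1 young library turned both signs. Without young macrophage replicate 15 they were -1.48 and -2.08 (limma adjusted p of 0.445 and 0.376), and without replicate 9 they were 8.28 and 8.08 and passed (adjusted p of 0.00122 and 0.00553). The mean of Otoa in old macrophages was 0.844 times that in young macrophages, opposite in direction to its fitted difference, and edgeR and DESeq2 put it at -0.17 and -0.27. Otor had a log2 difference of 0.04 (limma adjusted p = 0.999), and the 2 young libraries decided its sign: it was 2.54 without young macrophage replicate 9 (adjusted p = 0.00849) and -2.47 without replicate 15 (adjusted p = 0.00497). The 3 genes called higher stand beside 24.1% of all genes and the 1 called lower beside 5.57%. Old macrophages lay wholly above young ones in 3 genes (Tecta, Otog and Otogl), against 31.7% of all genes, and wholly below in 1 (Coch), against 13.4%. The median was 3.40 over the 9 genes, 3.00 with the 4 bounds, and 0.89 over all genes, where 4441 were higher and 1027 lower. The median of the 9 genes turned to -1.09 without young macrophage replicate 15 and was 4.94 without replicate 9, 1.64 with quantile normalization, 0.85 with edgeR and 0.74 with DESeq2. Quantile normalization brought the median of all genes to -0.07 with 2292 higher and 2277 lower, and DESeq2 gave 3918 higher and 1884 lower. Otog (5.41, limma adjusted p = 0.00498) and Tecta (3.75, adjusted p = 0.021) stayed called after quantile normalization, and Otogl did not (1.72, adjusted p = 0.332).

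In nonmacrophages Tecta was higher in old mice, and no other of the 9 genes passed. Tecta averaged 452 ± 303 normalized reads in old nonmacrophages and 24.0 ± 26.0 in young nonmacrophages (SD, n = 4 each), a log2 difference of 5.00 (SE 1.06, limma adjusted p = 0.0333). The 1 unsorted young cochlea had 662 normalized reads of Tecta, within the old nonmacrophage range of 149 to 872. Tecta was thus low in the sorted young libraries and not in the unsorted one. The other differences were 4.09 for Otogl (limma adjusted p = 0.103), 2.76 for Tectb (0.416), 2.70 for Otoa (0.338), 1.10 for Ceacam16 (0.752) and 1.05 for Otog (0.477). The 3 fibrocyte genes had negative differences, -1.13 for Coch (limma adjusted p = 0.101), -1.24 for Otos (0.415) and -1.04 for Otor (0.451). Their old means were 0.412, 0.375 and 0.448 times the young means, and the 6 tectorial genes' old means were 1.52 (Tectb) to 18.8 times (Tecta) the young ones. Single young libraries set several of these ratios. Tectb stood at 4.86 without replicate 6 and Tecta at 37.6 without replicate 5. Without replicate 14, Otogl stood at 25.4 in place of 4.19 and Otoa at 5.02 in place of 3.09.

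The 1 gene called higher in old nonmacrophages stands beside 1.64% of all genes. Tecta and Ceacam16 lay wholly above in old libraries, beside 12.0% of all genes, and Coch wholly below, beside 5.39%. The median log2 difference was 1.10 over the 9 genes and 0.39 over all genes, which quantile normalization brought to -0.03. Over all genes the split was 303 higher and 15 lower with limma and 521 higher and 1138 lower with DESeq2. The Tecta call was lost with edgeR, quality weights, a pseudocount of 0.1, a fit of only these 8 libraries, or without any 1 of replicates 10, 11, 18 and 6 (limma or edgeR adjusted p up to 0.118), and its log2 difference stayed between 3.81 and 5.87. Without young replicate 14, 2 of the 9 genes passed, Tecta and Otogl, and 3562 in place of 318 of all genes did.

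**Figure D3:**
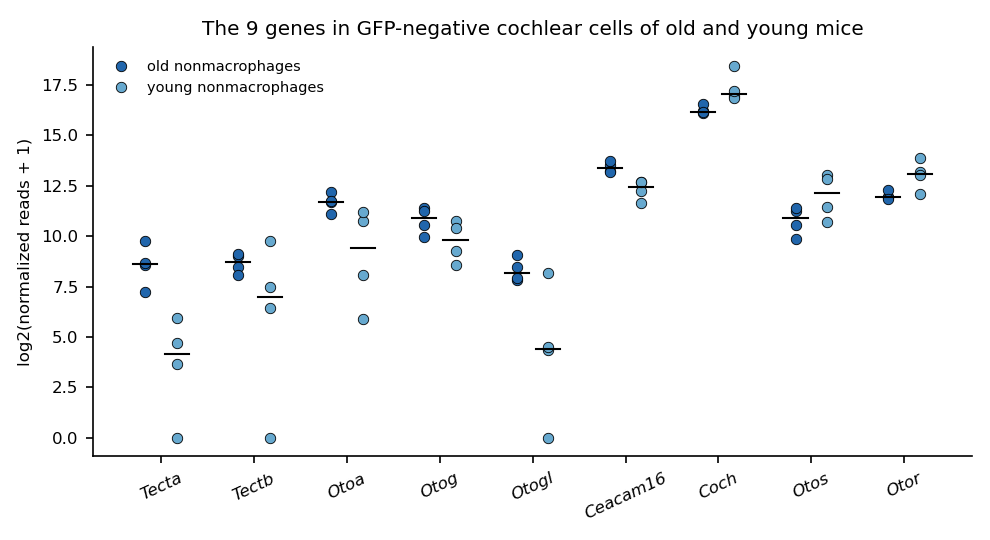
Log2(normalized reads + 1) of the 9 genes in the 4 old and 4 young nonmacrophage libraries (points), with bars at the medians. Old points of Tecta and Ceacam16 lie above all young ones, and old points of Coch lie below all young ones.

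The mean level of markers of hair cells, which lie under the tectorial membrane, was higher in the old groups, as Tecta was. Within young nonmacrophages it did not follow Tecta. Replicate 5 had the most Tecta (59.9 normalized reads) and the lowest mean log2 hair cell level (2.42). Replicate 14 had the highest such level (4.82) and 24.6 of Tecta. Of 10 hair cell genes, 7 were called higher in old than in young nonmacrophages, beside 1.64% of all genes, among them Tmc1, a channel subunit of the hair bundle (log2 difference 6.20, limma adjusted p = 0.00303), and Otof, a calcium sensor of their synapses (7.03, adjusted p = 0.0443). Their mean log2 level was 7.58 to 9.05 in old nonmacrophages and 7.97 in the unsorted young cochlea, against 2.42 to 4.82 in young nonmacrophages. Pou4f3, a defining transcription factor gene of hair cells, was at 0 in all 4 young nonmacrophage libraries. In young macrophages 9 and 8 of the 10 genes were at 0, in replicates 9 and 15. Among macrophages their mean level was 3.92 to 6.93 in old and 1.25 and 1.97 in young libraries, and 5 of the 10 genes were called higher in old macrophages, beside 24.1% of all genes. Strc, the gene of stereocilin, which ties the outer hair bundles to the membrane, had a log2 difference of 6.56 between old and young nonmacrophages (limma adjusted p = 0.00572) and was at 0 in 3 of the 4 young libraries. Supporting cell genes gave 0 of 14 calls between old and young nonmacrophages, and fibrocyte genes 0 of 10. Beside 1.64% of all genes called higher, lists of this size would give few or no calls, so these counts set neither list apart. Their median log2 differences were 0.69 and -0.58, against 0.39 over all genes. The most abundant of the hair cell genes, Cib2, a calcium-binding protein, did not follow the other hair cell genes, with 3281 ± 288 normalized reads in old macrophages, against 672 ± 75.0 in old nonmacrophages (SD, n = 4 each, limma adjusted p = 0.00692). Myo7a, a motor of the hair bundle, averaged 1059 ± 293 in old and 309 ± 230 in young nonmacrophages (limma adjusted p = 0.426). The part of hair cell RNA in the Tecta difference was not tested.

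**Figure D4:**
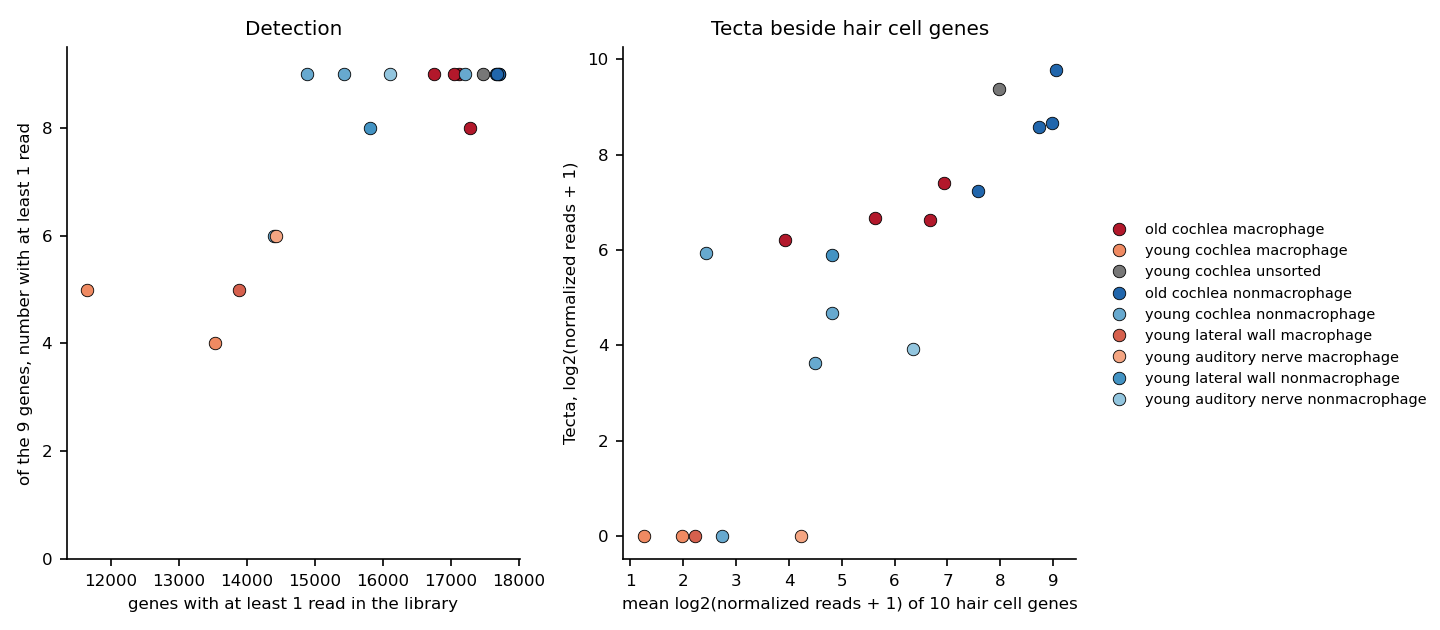
Left, the number of the 9 genes with at least 1 read against the number of all genes with reads, for each of the 19 libraries. Right, the log2 level of Tecta against the mean log2 level of 10 hair cell genes; the 4 old nonmacrophage libraries and the unsorted young cochlea lie at the upper right, and the 5 libraries without Tecta reads lie at hair cell levels of 1.25 to 4.22.

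Whether the age difference depended on the sort was tested as the macrophage difference minus the nonmacrophage difference. Otog was the only one of the 9 genes to pass, at 6.90 (SE 1.35, limma adjusted p = 0.0055), beside 6.98% of all genes called in that direction. Its old and young nonmacrophages averaged 1919 ± 807 and 1018 ± 634 normalized reads (SD, n = 4 each), whereas its old macrophages averaged 385 ± 286 and its young macrophages had none. The size of this difference rests on the pseudocount, since a group at 0 enters it, and ranged from 3.69 to 11.16 over the alternatives. The call was lost with a pseudocount of 10 (3.69, limma adjusted p = 0.0976), with library quality weights (adjusted p = 0.806) and after quantile normalization (4.32, adjusted p = 0.119), which changed the split of all genes to 415 higher and 223 lower from 1288 higher and 176 lower. Tecta had a difference of 1.72 between the sorts (limma adjusted p = 0.578) and Coch -0.05 (adjusted p = 0.972). The median was 1.07 over the 9 genes and 0.46 over all genes, and that of the 9 genes turned to -0.64 after quantile normalization and -0.05 with a pseudocount of 10, and was 0.03 without young macrophage replicate 15.

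Depth and detection moved with these age differences. All 9 genes had reads in 12 of the 19 libraries, which included every old nonmacrophage library and 3 of the 4 old macrophage ones. Young macrophage replicates 9 and 15 had reads of 5 and 4 genes, and the lateral wall and auditory nerve macrophage libraries of 5 and 6. The unsorted young cochlea, with the fewest reads of all libraries (20.6 M), had reads of all 9. With every library thinned to 20 M reads, 4 of the 9 genes were called between old and young macrophages and 1 between old and young nonmacrophages, as without thinning. Of 18402 genes 5273 and 242 were called. Thinning makes depth equal but not the number of genes with reads. Before it that number was 17468 in the unsorted cochlea and 11652 and 13532 in young macrophages. The part of detection in the age differences was not tested.

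In the substructures, which gave 1 library each and allow no test, the 9 genes did not all run the same way between the nonmacrophage libraries. The lateral wall nonmacrophage library had 58.1 normalized reads of Tecta and 141 of Otogl, and the auditory nerve one 14.0 and 47.6. Their ratios were 4.16 (95% counting interval 2.03 to 9.35) and 2.96 (1.98 to 4.52). The other tectorial genes ran the other way. Tectb had no reads in the lateral wall and 101 in the auditory nerve library, at least 21.9-fold lower in the lateral wall. Otog had 29.1 in the lateral wall and 150 in the auditory nerve (ratio 0.194, interval 0.112 to 0.318), Otoa 526 and 2027 (0.260) and Ceacam16 1722 and 6780 (0.254). Thus all 4 were lower in the lateral wall library by more than the counting error, which leaves out the spread between mice. Young whole-cochlea nonmacrophage libraries ran from 0 to 855 for Tectb and 376 to 1748 for Otog. They ran from 58.7 to 2380 for Otoa and 3254 to 6570 for Ceacam16. A difference between the tissues was therefore not tested.

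Coch had 218026 normalized reads in lateral wall and 467101 in auditory nerve nonmacrophages, a ratio of 0.467, the auditory nerve value being the highest of all 19 libraries. Otos had 1759 and 2095 (ratio 0.839) and Otor 4833 and 6587 (ratio 0.734), so the fibrocyte genes were not higher in the lateral wall library. Past 4-fold once 1 normalized read was added to both values, with at least 20 in the higher library, 2 of the 9 genes were lower in the lateral wall (Tectb and Otog) beside 9.96% of 15267 genes. None was higher by that rule, with Tecta just short at 3.94-fold. In the lateral wall and auditory nerve macrophage libraries Coch was the leading gene at 12473 and 33261 normalized reads, with Otor at 75.0 and 185, Otos at 170.0 and 322 and Ceacam16 at 73.5 and 66.1. Tecta, Tectb and Otogl had no reads in either, Otoa had 1 read in each, and Otog had 0 in the lateral wall and 85.9 in the auditory nerve. These levels lay below the nonmacrophage library of the same tissue in every gene except Tectb of the lateral wall, which had no reads in either sort.

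The unsorted young cochlea was set against the 4 young nonmacrophage libraries to see the 9 genes without a sort. It had 662 normalized reads of Tecta, 3037 of Otoa and 1904 of Otog, each above all 4 young nonmacrophage values. This placed 3 of the 9 genes above, beside 27.0% of 18551 genes. It had 2329 of Ceacam16, 54059 of Coch and 911 of Otor, each below all 4, beside 15.7% of genes. Tectb (612), Otogl (185) and Otos (3899) fell within the young nonmacrophage range. Tecta stood 27.6 times as high in the unsorted cochlea as the mean of young nonmacrophages, and Otor at 0.10 times. With 1 unsorted library these are descriptions of that library.

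The collagens of the tectorial membrane, a list of 6 genes, were called lower in macrophages in 3 of 6 genes in the old cochlea, beside 9.36% of all genes, and in 6 of 6 in the young, beside 22.3%. Their median log2 differences were -2.53 and -6.52. Col11a2, a fibril-forming chain, averaged 587 ± 58.3 normalized reads in old macrophages, against 1779 ± 164 in old nonmacrophages (SD, n = 4 each, limma adjusted p = 0.297). Col2a1, the main fibril chain, averaged 91.2 ± 52.2 in old macrophages and 1062 ± 36.0 in old nonmacrophages (limma adjusted p = 0.0909). Col9a3, a chain of the collagen on fibril surfaces, averaged 3441 ± 3250 in old macrophages and 2140 ± 861 in old nonmacrophages (adjusted p = 0.795), and its fitted log2 difference of 0.37 was the 1 positive value of the 6. Between old and young macrophages 5 of the 6 were called higher, beside 24.1% of all genes. Between old and young nonmacrophages limma called none higher, beside 1.64% of all genes (median 0.07).

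Among 7 genes of attachment and otoconial proteins, 3 were lower in old macrophages and 3 in young macrophages than in nonmacrophages of the same age, beside 9.36% and 22.3% of all genes, and none was higher. Emilin2, an elastin-associated protein found in the cochlea, averaged 5366 ± 883 normalized reads in old macrophages, against 42353 ± 1663 in old nonmacrophages (SD, n = 4 each). Otop1, a proton channel needed for otoconia, averaged 137 ± 80.1 in old macrophages and 2532 ± 1040 in old nonmacrophages. Sparcl1, an extracellular matrix protein of many tissues, averaged 68528 ± 15366 in old macrophages and 47617 ± 5002 in old nonmacrophages (limma adjusted p = 0.171). Strc passed between old and young nonmacrophages, the only 1 of the 7 to do so.

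The cell types thought to make these proteins were also measured in the sorts. Of 10 fibrocyte and mesenchyme genes, 6 were lower in old macrophages and 9 in young macrophages, beside the same 2 shares of all genes, among them Dcn, a small matrix proteoglycan, at 3581 ± 633 in old macrophages, against a nonmacrophage mean of 59410.0 ± 7075 (SD, n = 4 each), and Apod, a lipid carrier, at 21863 ± 5320 and 152981 ± 26638. Car3, a carbonic anhydrase, averaged 2933 ± 1786 in old macrophages and 7794 ± 1934 in old nonmacrophages. Of 14 supporting cell genes, 4 were lower and 2 higher in old macrophages, and 8 lower and 1 higher in young macrophages. Of all genes, 9.25% were higher in the old and 9.18% in the young sort. The median log2 difference of the 14 genes was -0.11 in the old and -2.53 in the young sort. Over the 10 fibrocyte genes it was -2.76 and -4.11, and over all genes -0.19 and -0.61. The cochlear connexin gene Gjb2 averaged 10002 ± 2302 in old macrophages and 21488 ± 3129 in old nonmacrophages, and Gjb6 7980 ± 2257 and 21196 ± 3237, whereas the tubulin gene Tuba1b averaged 47445 ± 3454 and 37499 ± 1611 (limma adjusted p = 0.312). Genes of both lists thus had reads in the GFP-positive libraries beside the 9 genes, and their part in the macrophage values was not tested. Between old and young macrophages 6 of the 14 supporting cell genes were called higher and 1 lower, and 2 of the 10 fibrocyte genes higher. Of all genes 24.1% were called higher and 5.57% lower in that comparison.

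For each gene the 3 genes with the most similar pattern over the 19 libraries were found by the mean absolute difference of log2 levels after each gene's mean was taken off. Otor had the closest, Plpp4 at 0.50, Rarres1 at 0.61 and Tnfaip6 at 0.72, and Coch had Aldh3a1 at 0.55, Serping1 at 0.61 and Ogn at 0.62. Tecta was nearest to Mok (0.83), Tmc1 (0.96) and Ly75 (0.96), and Otogl to Acss3 (0.71), Ror2 (0.75) and Loxl4 (0.76). Otos was nearest to Gstt1, Pantr1 and Bmp4 (0.89 to 0.92), and Otoa to Scnn1b, Egf and Grik1 (0.93 to 1.08). Otog was nearest to Slc9b2, Ddn and Sfrp5 (0.96 to 0.98), Ceacam16 to Chst5, Bdh2 and Jph1 (1.17 to 1.20) and Tectb to Dlk2, Tex52 and Epha10 (1.11 to 1.36). None of the 9 had another of the 9 among its nearest 3. The closest such pair ranked 13th for Tecta, whose nearest member was Otogl (1.08), and Ceacam16 was at rank 26 for Otoa. These patterns share libraries, depth and the 2 sorts, so likeness is a description of the 19 libraries.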

How the data were processed

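RNA sequencing libraries of 19 mouse samples were used, grouped by the labels' sort, tissue and age. The tools TopHat2, Partek and DESeq2 and the genome build mm10 are named, per the submitters' processing notes, with versions not given in the sources used here. The signal values that the authors deposited, 1 for each gene in each library, are counts of reads scaled by 1 factor per library, as the file headers and the values show. Dividing by the smallest positive value of a library gave back its reads: within 0.1 read, 100.0% of values under 10000 reads came out whole, as did 99.8% of all values above 0. The design had allowed for raw counts; since the values were normalized, limma 3.58.1 (R 4.3.3) was used with its trend and robust options. The fit took log2(value + 1) in the 14 sorted libraries of whole cochleae and estimated 4 group means. The filter, a value of 1 or more in 2 or more libraries, kept 18441 genes and all 9 members, and p-values were adjusted by Benjamini-Hochberg over all genes, at 0.05. A fold change on the log2(value + 1) scale understates the change of low genes.

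The alternatives were quantile normalization, pseudocounts of 0.1 and 10, a filter of 10, no filter, library quality weights, a fit of only the groups compared, edgeR 4.0.16 and DESeq2 1.42.0 on the recovered reads, leaving out each library and, added after the depths were seen, thinning to 20 M reads. On the recovered reads edgeR's quasi-likelihood test called 2956 and 4942 genes in the old and young sort comparisons, 3767 between old and young macrophages, 3 between old and young nonmacrophages and 1463 for the difference of the age effects. The limma step was tested on simulated data. The simulation gave every gene the same spread setting and, apart from set fold changes, every group the same base level. It therefore does not bear on genes at 0 in a whole group. Libraries with no reads of a gene allow up to 3 reads, and fold bounds used that floor per library. The 9 genes and the marker lists were chosen with earlier results of these data known. Named genes were the 9 members, Cx3cr1, Csf1r and Ptprc, the 3 genes with the highest mean of each list described for these comparisons, and the 3 most similar genes of each member, among genes with a mean of at least 20 and without predicted, clone, RIKEN or Y-linked names; Strc, Tmc1 and Pou4f3 were added after their values were seen. Which libraries were sequenced again, and which sorted libraries came from the same mouse, are not given in the sources used here.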

Additional observations from a re-analysis of the deposited data

Results flagged for a closer look

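Among the 9 genes in 3 groups of 4 libraries, 27 sets in all, 4 held a library that stood apart by Dixon's test. For normally distributed values that test flags about 1 in 20 sets by chance. Here it was run on normalized reads without a log, so its rate of chance flags is not known. All 4 flagged values were the highest of their set. Tectb stood at 514 normalized reads in old macrophage replicate 12, against 0 to 37.2 in the other 3 old macrophage libraries. Otogl stood at 285 in young nonmacrophage replicate 14, against 0 to 21.2 in the other 3. Coch stood at 95176 in old nonmacrophage replicate 18, against 71089 to 74819 in the other 3, and at 362711 in young nonmacrophage replicate 5, against 120474 to 152451 in the other 3.

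Otog had an age difference in macrophages that exceeded its age difference in nonmacrophages by 6.90 on the log2 scale in the test of that difference (SE 1.35, limma adjusted p = 0.0055), with no reads in the 2 young macrophage libraries.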

How the results depend on the processing

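The number of the 9 genes called was 3 between old macrophages and nonmacrophages, 3 between young ones, 4 between old and young macrophages, 1 between old and young nonmacrophages and 1 for the difference of the age effects. Over all genes the numbers were 3431, 5814, 5468, 318 and 1464. In the old sort the 9 genes gave 6 calls with quantile normalization, 9 with quality weights, 9 with only the groups compared and 6 with DESeq2, and all genes gave 11167 with quality weights and 10654 with only the groups compared. In the young sort they gave 6 with a filter of 10, 5 with a pseudocount of 0.1, 0 with quality weights, 5 with edgeR and 6 with DESeq2, and all genes gave 575 with quality weights and 1426 with only the groups compared. Between old and young macrophages quality weights gave 0 of the 9 and 362 of all genes. Between old and young nonmacrophages the 9 gave 0 calls with a pseudocount of 0.1, quality weights, only the groups compared or edgeR and 2 with DESeq2, and all genes gave 89 with quantile normalization, 190 with quality weights, 175 with only the groups compared, 3 with edgeR and 1659 with DESeq2. For the difference of age effects the 9 gave 0 with quantile normalization, a pseudocount of 10 or quality weights and 2 with DESeq2, and all genes gave 638 with quantile normalization, 148 with quality weights and 2978 with DESeq2. Quality weights, which gave 0 calls of the 9 in 4 comparisons, gave 2992, 2700, 4332 and 1842 of all genes at an unadjusted p under 0.05. Leaving out 1 library gave 2 to 3, 3 to 6, 2 to 5, 0 to 2 and 1 to 3 of the 9, and 2369 to 2656, 5028 to 7984, 4206 to 8490, 167 to 3562 and 1116 to 5369 of all genes, in the order of the first sentence. A 2-fold limit between lateral wall and auditory nerve gave 7 genes in place of 2. Of these 2 were higher in the lateral wall (Tecta and Otogl) and 5 lower, beside 2275 higher and 2805 lower of 15267 genes. The old against young macrophage difference of Otor reversed to -2.47 without young macrophage replicate 15 and was 2.54 without replicate 9. The causes were not tested. Of 819 values of single genes under alternatives, 690 kept their direction and side of the threshold. No paired analysis was possible because the replicate numbers in the titles run from 1 to 19 and never repeat between groups. The 2 young macrophage libraries limit every comparison that uses them, and 1 read in a young library was worth up to 1.78 normalized reads.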
